A study of Homo sapiens with 6 samples.

Results

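The genes followed here encode the enzymes that make the N-glycan precursor and the oligosaccharyltransferase that transfers it to proteins. The set was chosen by name, as 41 listed genes of the hexosamine pathway, mannose phosphate and dolichol synthesis, the ALG glycosyltransferases with the dolichol-linked sugar donors, and the oligosaccharyltransferase subunits. Of the 41, 35 had a probe set annotated to that symbol alone, and all 35 were tested, among 12839 genes tested in all and 19775 genes with a probe set of their own. GFPT2, PGM3, PMM2 and SRD5A3 were not analysed here, and ALG11 and ALG10B could be read only from probe sets shared with other genes.

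RNA came from Daoy, an established human medulloblastoma cell line, on 6 expression arrays of 3 groups with 2 arrays each. Untreated cells served as the control, and the other groups had received thapsigargin (Tg) at 1 µM for 3 h or for 8 h. Thapsigargin blocks the calcium pump of the endoplasmic reticulum (ER) and so induces the unfolded protein response (UPR). The comparison asks which steps of N-glycan precursor synthesis changed at the RNA level during this stress. All cells were of 1 line, so nothing here speaks to other cells.

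Secretory proteins receive N-glycans in the ER, where a preassembled oligosaccharide is moved as a block from a lipid carrier, dolichol, to asparagine residues. The hexosamine pathway supplies UDP-N-acetylglucosamine, the mannose phosphate enzymes lead to GDP-mannose, and the ALG enzymes add the sugars in a fixed order, first on the cytosolic face of the ER membrane and then in its lumen. Because attached glycans help a new protein to fold and mark it for the ER lectin chaperones, the pathway is part of the folding machinery that the UPR serves. GFPT1 has been described as a target of XBP1, a transcription factor of the UPR.

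Values are MAS5 signals, the linear intensity that the authors' software gave each probe set, and each gene was read from its brightest own probe set. Fold changes are on the log2 scale, with the standard error (SE) of the fit, and p-values are from limma with Benjamini-Hochberg adjustment over 27616 probe sets and a threshold of 0.05. Arrays that shared a replicate number resembled each other, with hybridization controls at 7762 to 11671 on replicate 1 and 2718 to 2840 on replicate 2. Each comparison was therefore also fitted with the replicate number as a block, and a gene is called in the blocked fit or in the fit without the block as stated. All 4 genes fixed as a check of the treatment (HSPA5, DDIT3, HERPUD1 and DNAJB9) rose in the blocked fit at both times. Without the block 1 of them passed at 3 h and 2 at 8 h. HSPA5 passed at neither time in that limma fit (adjusted p = 0.44 at 3 h and 0.12 at 8 h). Untreated replicate 2 already stood above untreated replicate 1 for DDIT3, at 1654 against 405, and for HERPUD1, at 6623 against 1376. The same arrays lay closer together for HSPA5, at 18933.2 against 16614.5, and for DNAJB9, at 2095.8 against 1670.9. Of 11 markers of medulloblastoma and neural lineage, 9 passed the filter on dim probe sets, ZIC1, SOX2 and TUBB3 among them, while ATOH1 and SYP did not. All 9 had a negative change at 8 h, as did 7713 of all 12839 genes tested. Of the 9, SOX2 and GLI2 fell in the blocked fit, where 3.79% of all genes fell. OTX2 (95.6 to 146.2 on the 6 arrays) and GLI1 (16.3 to 187.4) lay near the filter's limit of 100. None of 4 immune and 3 astrocyte markers passed that filter, and none of the 4 endothelial and 4 fibroblast markers that did was called in either fit.

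At 8 h the hexosamine enzymes GFPT1 and UAP1, the dolichol synthesis gene NUS1, the glycosyltransferases ALG5 and ALG2, and the oligosaccharyltransferase subunits MAGT1, OSTC and RPN1 rose in the blocked fit, by 1.54-fold to 4.98-fold. These 8 of 35 members compare with 4.76% of all genes tested that rose in that fit, and 0 members fell, against 3.79% of all genes. The 8 had mean untreated signals of 1701 (ALG2) to 5848 (OSTC), and the shares of all genes were not matched for signal. Without the block only ALG2 passed (1 of 35, against 0.646% of all genes), while 7 members were higher and 0 lower at an unadjusted p under 0.05. The blocked calls also rested on the intensity trend of limma's variance prior, without which 0 members and 0 of all probe sets passed and 9 members were higher at an unadjusted p under 0.05. The local pooled error test, which the study's methods name, was rewritten here with Benjamini-Hochberg adjustment and is not the study's own S-Plus run. With it GFPT1 and MAGT1 passed, 2 of 35 against 1.05% of all genes. At 3 h 0 members passed in limma with or without the block or in the local pooled error test, and 0 members had an unadjusted p under 0.05 without the block. Of all genes, 0.0701% rose at 3 h without the block and 1.17% with it.

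Across the members, the direction was upward at 8 h and mixed at 3 h. The median log2 change was 0.27 at 8 h, when the median of all genes tested was -0.09, and it was -0.04 at 3 h, when that of all genes was -0.02. At 8 h the members' median was 0.31 within replicate 1 and 0.17 within replicate 2. A positive change was found for 26 of the 35 members at 8 h (74.3%, against 39.9% of all genes), and for 15 of the 35 at 3 h. Both Tg 8 h arrays lay above both untreated arrays for 18 members (51.4%, against 15.3% of all genes) and below both for 2 members, ALG10 and TUSC3 on their brightest probe sets (5.71%, against 26.7%). At 3 h, 5 members lay wholly above, against 14% of all genes, and 4 wholly below, against 16.5%, shares close to those of all genes. The 27 members that were not called had a median change of 0.09 at 8 h, with a range of -0.55 to 0.69.

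**Figure D1:**
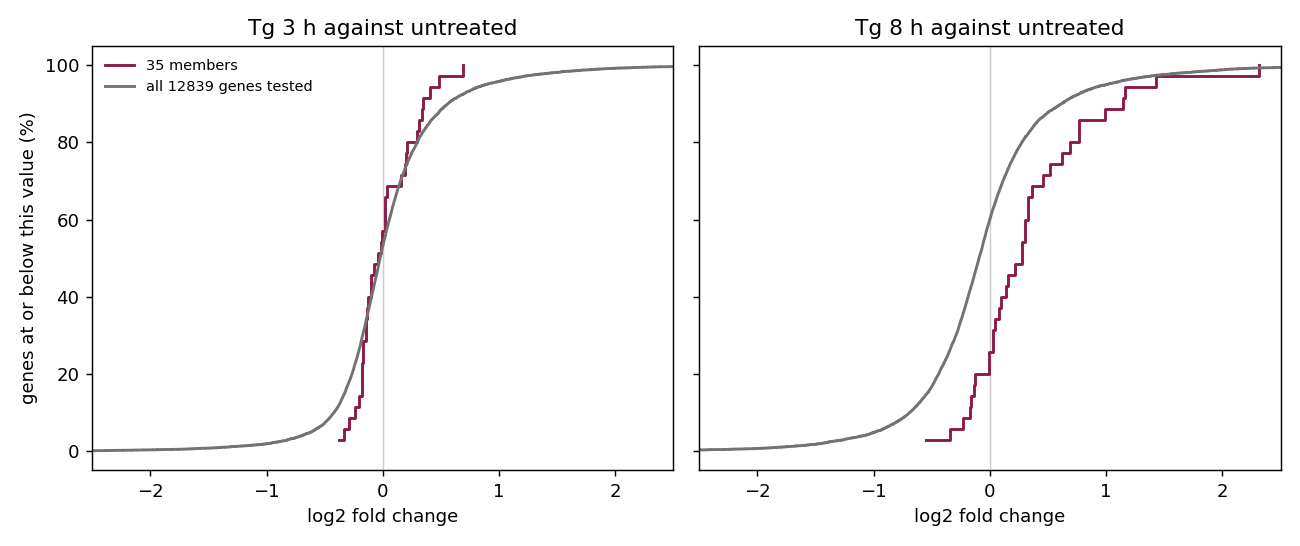
Cumulative share of genes (vertical axis, %) by log2 fold change (horizontal axis, cropped at -2.5 and 2.5) at 3 h and at 8 h against untreated cells, for the 35 members and for all 12839 genes tested. The members' curve crosses that of all genes at 3 h and lies to its right over most of the range at 8 h, where the medians are 0.27 and -0.09.

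**Figure D2:**
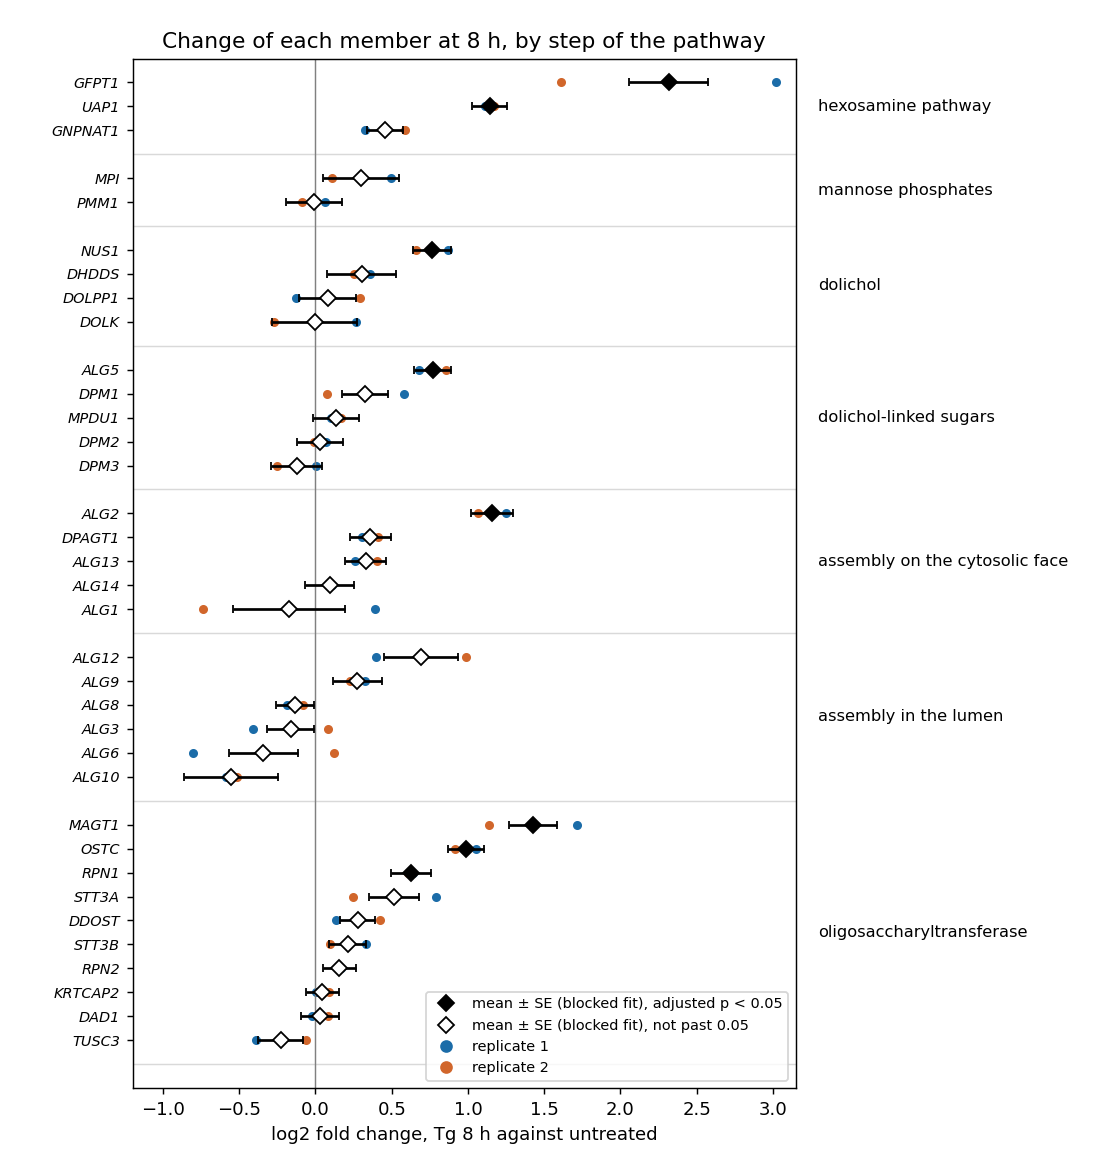
Log2 fold change of each tested member at 8 h against untreated cells, grouped by step. Diamonds are means with the SE of the blocked fit, filled where the adjusted p was under 0.05, and dots are the changes within replicate 1 and replicate 2. Filled diamonds stand in 5 of the 7 steps, with none in the mannose phosphate step or the lumenal step.

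The hexosamine step had the largest median change at 8 h among the 7 steps, 1.14 on the log2 scale over its 3 tested members, 2 of which rose in the blocked fit. GFPT1 makes glucosamine 6-phosphate from fructose 6-phosphate and glutamine, the entry and rate-limiting reaction of the pathway. Its signals (Entrez gene 2673) were 1404 and 3518 in untreated cells, 2684 and 4781 at 3 h, and 11402 and 10742 at 8 h. The groups did not overlap at 8 h, and the untreated arrays differed from each other more than the 8 h arrays did. The change at 8 h was 2.32 ± 0.43 (SE, n = 2 arrays per group, adjusted p = 0.0753 in limma without the block) and the blocked fit gave 2.32 ± 0.26 (adjusted p = 0.000899). Within replicate 1 the change was 3.02 and within replicate 2 it was 1.61. Leaving out untreated replicate 2, the array with the higher untreated signal of GFPT1, DDIT3 and HERPUD1, gave 2.98 (adjusted p = 0.0134, no block). Whether that array's higher DDIT3 and HERPUD1 signals bear on the GFPT1 value was not tested.

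UAP1 makes UDP-N-acetylglucosamine, the end product of the pathway. Its signals (Entrez gene 6675) were 3105 and 3757 in untreated cells, 3842 and 4841 at 3 h, and 6727 and 8467 at 8 h, so that each group lay wholly above the one before. The change at 8 h was 1.14 ± 0.11 in the blocked fit (adjusted p = 0.00058, and 0.0904 without the block), and it was 1.12 and 1.17 within the replicates. GNPNAT1, which acetylates glucosamine 6-phosphate, came just short, at 0.46 ± 0.12 in the blocked fit (adjusted p = 0.0519), with both 8 h arrays above both untreated arrays.

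**Figure D3:**
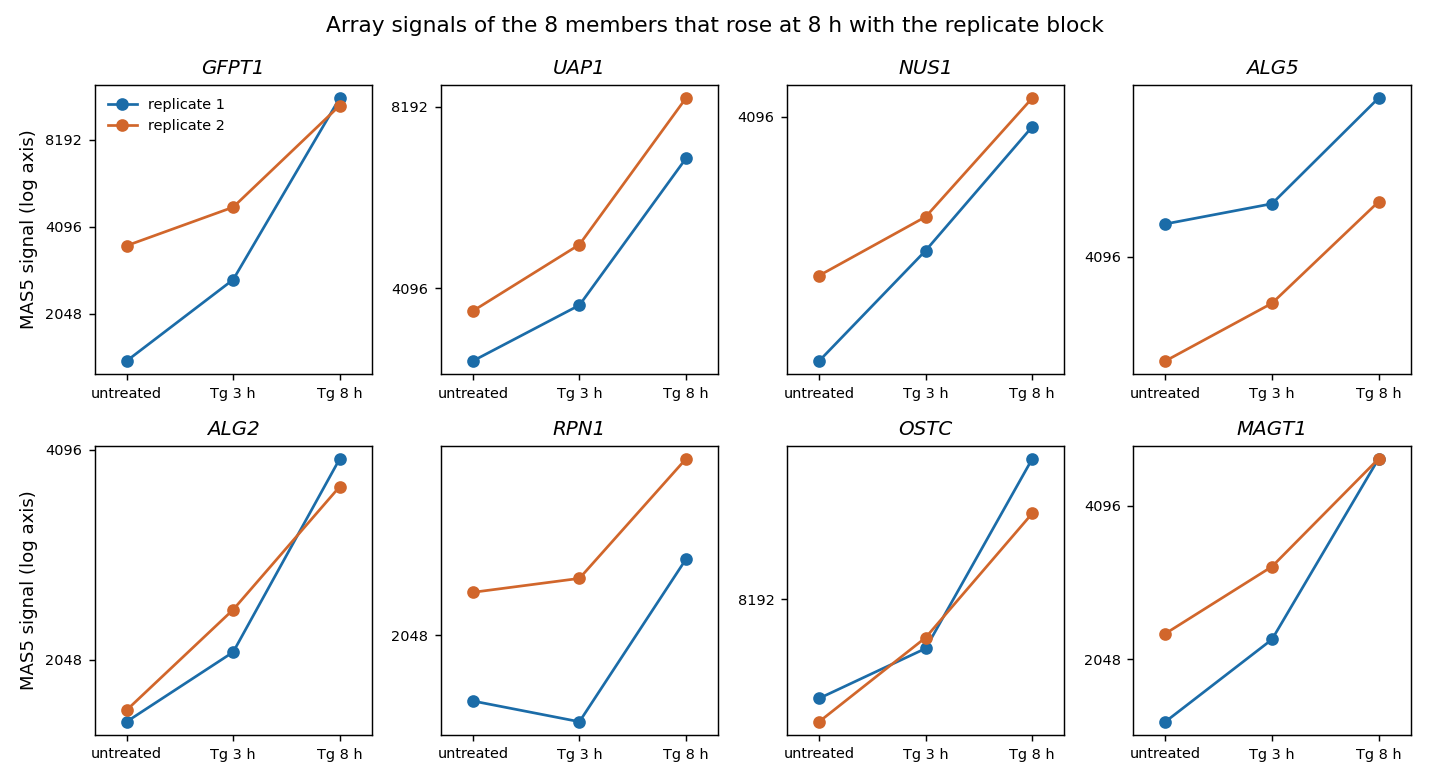
MAS5 signal (log axis, separate scale per gene) on each array for the 8 members that rose at 8 h in the blocked fit, in untreated cells and after 3 h and 8 h of Tg, with lines joining the arrays of replicate 1 and of replicate 2. In every panel both 8 h arrays lie above both untreated arrays, and GFPT1 shows the widest gap between untreated arrays (1404 and 3518).

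The 250 bases before and 50 bases after the annotated start of some of these genes (RefSeq, GRCh38.p14) are shown to set the members that rose beside those that hold the motifs of UPR transcription factors. Capitals mark 4 motifs on either strand, of which only 3 occurred in the members. They are the ER stress response element ERSE (CCAAT, 9 bases of any kind, then CCACG), the UPR element TGACGTGG, CCACG alone, which is also the second part of an ERSE and is contained in CCACGTCA, the reverse of the UPR element, and the amino acid response element TGATGNAA. GFPT1 (chr2:69387178-69387477, minus strand) held CCACG 3 times and no ERSE, and ALG2 (chr9:99221893-99222192, minus strand) and MAGT1 (chrX:77895519-77895818, minus strand) held none of the 4 motifs. ALG12 (chr22:49918389-49918688, minus strand) held the only ERSE among the members, and DHDDS (chr1:26432071-26432370, plus strand) the only UPR element.
GFPT1: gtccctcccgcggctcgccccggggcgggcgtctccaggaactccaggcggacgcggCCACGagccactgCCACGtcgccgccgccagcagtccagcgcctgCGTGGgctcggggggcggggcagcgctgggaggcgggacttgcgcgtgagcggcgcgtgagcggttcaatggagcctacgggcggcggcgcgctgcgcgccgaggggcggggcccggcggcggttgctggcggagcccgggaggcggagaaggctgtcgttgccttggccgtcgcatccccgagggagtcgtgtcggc
ALG2: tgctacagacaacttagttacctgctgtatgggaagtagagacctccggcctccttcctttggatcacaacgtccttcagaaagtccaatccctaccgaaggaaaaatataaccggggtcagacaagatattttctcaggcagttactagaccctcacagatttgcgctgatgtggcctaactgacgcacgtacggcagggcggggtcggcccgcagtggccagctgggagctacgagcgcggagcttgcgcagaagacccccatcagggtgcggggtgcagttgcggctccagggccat
MAGT1: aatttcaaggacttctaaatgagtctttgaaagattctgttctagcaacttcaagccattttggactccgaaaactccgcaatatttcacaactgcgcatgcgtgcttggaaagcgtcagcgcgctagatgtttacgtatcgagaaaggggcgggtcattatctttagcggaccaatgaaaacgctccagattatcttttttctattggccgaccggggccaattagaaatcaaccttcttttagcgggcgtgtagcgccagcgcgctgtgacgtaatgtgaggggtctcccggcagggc
ALG12: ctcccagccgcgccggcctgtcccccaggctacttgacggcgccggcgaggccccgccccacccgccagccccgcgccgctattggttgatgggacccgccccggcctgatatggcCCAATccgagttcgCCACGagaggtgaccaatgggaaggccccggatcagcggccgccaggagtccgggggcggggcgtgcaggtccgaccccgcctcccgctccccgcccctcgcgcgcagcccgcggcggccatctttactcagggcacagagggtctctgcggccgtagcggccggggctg
DHDDS: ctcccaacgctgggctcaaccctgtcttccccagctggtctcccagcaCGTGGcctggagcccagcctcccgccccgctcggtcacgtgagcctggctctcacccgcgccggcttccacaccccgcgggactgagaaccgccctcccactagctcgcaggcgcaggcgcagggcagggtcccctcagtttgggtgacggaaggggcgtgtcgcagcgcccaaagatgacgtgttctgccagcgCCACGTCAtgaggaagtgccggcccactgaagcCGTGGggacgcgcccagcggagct
Of the 41 listed genes, 37 had such a window, 7 of them among the 8 that rose. CCACG occurred in 5 of these 7 (GFPT1, UAP1, NUS1, ALG5 and OSTC) and in 17 of 24 tested members that were not called, and in 42.1% of all 27305 genes with a window. An ERSE was present in 0.0916% of those genes, a UPR element in 0.927% and an amino acid response element in 4.46%, and no member held the last. ALG12 and DHDDS, the holders of the exact ERSE and UPR element, were not called at 8 h in the blocked fit. Their changes were 0.69 and 0.30 (adjusted p = 0.14 and 0.501), and for each both 8 h arrays lay above both untreated arrays. With 1 holder of each motif among 37 members, a link between motif and change was not tested. A match of letters is a description of the window and not of binding.

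The mannose phosphate step had 2 tested members and neither was called. MPI, which interconverts fructose 6-phosphate and mannose 6-phosphate, changed by 0.30 ± 0.25 at 8 h in the blocked fit. PMM1, which moves the phosphate of mannose 6-phosphate to form mannose 1-phosphate, had signals of 450 and 762 in untreated cells, 427 and 675 at 3 h, and 471 and 718 at 8 h. Its groups overlapped at both times, the change at 8 h was -0.01 ± 0.19 in the blocked fit, and its sign turned with the scaling of the arrays. Its paralog PMM2, the form best known from congenital disorders of glycosylation, was not analysed here.

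Dolichol synthesis was represented by 4 tested members, with a median change of 0.19 at 8 h. NUS1, a subunit of the cis-prenyltransferase that builds the dolichol chain, had signals (Entrez gene 116150) of 2185 and 2722 in untreated cells, 2904 and 3167 at 3 h, and 3994 and 4300 at 8 h. The 3 groups did not overlap, and the change at 8 h was 0.76 ± 0.13 in the blocked fit (adjusted p = 0.00678, and 0.207 without the block). A probe set shared with NUS1P3 was at -0.28 at 3 h, with overlapping groups. At 8 h it was at 0.54 (adjusted p = 0.144, blocked), with both Tg arrays above both untreated arrays. Leaving out either the untreated or the Tg 8 h array of replicate 1 ended the blocked call of NUS1. DHDDS, the catalytic partner of NUS1 in the same enzyme, changed by 0.30 ± 0.23 at 8 h (adjusted p = 0.501, blocked), although both of its 8 h arrays lay above both untreated arrays. The difference between the changes of these 2 subunits was not tested. DOLK, the dolichol kinase, was at -0.0050 ± 0.28 (blocked) and DOLPP1, which recycles dolichyl pyrophosphate, at 0.08 ± 0.19.

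The dolichol-linked sugar donors are dolichyl phosphate mannose, made by DPM1 with DPM2 and DPM3, and dolichyl phosphate glucose, made by ALG5. They serve the lumenal transferases, and MPDU1 is needed for their use. Of the 5 tested members, ALG5 alone rose. Its signals (Entrez gene 29880) were 4628 and 2774 in untreated cells, 4990 and 3441 at 3 h, and 7406 and 5027 at 8 h. Replicate 1 was the higher array in every group, and the change was 0.68 within replicate 1 and 0.86 within replicate 2. The blocked fit gave 0.77 ± 0.12 (adjusted p = 0.00522, and 0.492 without the block). The 3 DPM subunits ran from -0.12 for DPM3 to 0.33 for DPM1, whose change was 0.58 in replicate 1 and 0.07 in replicate 2, and MPDU1 stood at 0.14.

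On the cytosolic face, DPAGT1 starts the oligosaccharide with N-acetylglucosamine 1-phosphate, ALG13 and ALG14 together add the next N-acetylglucosamine, and ALG1, ALG2 and ALG11 add mannose. ALG2 was the only member that passed without the block as reported, but with no filter on dim probe sets GFPT1 passed in its place, and when probe sets were averaged per gene MAGT1 did. Its signals (Entrez gene 85365) were 1669 and 1733 in untreated cells, 2100 and 2416 at 3 h, and 3976 and 3628 at 8 h. Each group lay wholly above the one before, with replicates close together. The change at 8 h was 1.16 ± 0.19 (n = 2 arrays per group, adjusted p = 0.0499 in limma without the block) and 1.16 ± 0.14 in the blocked fit (adjusted p = 0.0012). Leaving out any 1 of the 6 arrays took the adjusted p of ALG2 without the block to 0.0918 or higher, while the change stayed between 1.09 and 1.23.

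DPAGT1, the target of the antibiotic tunicamycin, did not pass in either fit. Its signals were 1773 and 1788 in untreated cells, 1585 and 1732 at 3 h, and 2191 and 2379 at 8 h, so that the 3 h arrays lay below and the 8 h arrays above the untreated arrays. The changes of -0.10 at 3 h and 0.36 at 8 h had adjusted p-values of 0.811 and 0.162 in the blocked fit. ALG13 and ALG14, which work as 1 enzyme, were at 0.33 ± 0.14 and 0.09 ± 0.16 at 8 h. Both 8 h arrays of ALG13 lay above both untreated arrays on its brightest probe set only. Another bright ALG13 probe set was at -0.07 and dimmer ones at 0.07 and -0.31, all with overlapping groups at 8 h. ALG1 went in opposite directions in the replicates, at 0.39 and -0.74.

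The lumenal transferases add the remaining mannoses (ALG3, ALG9 and ALG12) and the terminal glucoses (ALG6, ALG8 and ALG10), using the dolichol-linked donors. None of the 6 tested was called, and their median change at 8 h was -0.15, the lowest of the 7 steps. It was -0.30 within replicate 1 and 0.10 within replicate 2, where the mannose phosphate step (0.00985) and the dolichol-linked donors (0.07) lay lower. ALG12 had the highest value, 0.69 ± 0.24 (adjusted p = 0.14, blocked), and ALG9 followed at 0.27 ± 0.16. ALG3, ALG6 and ALG8 lay between -0.34 and -0.13, and ALG6 was at -0.80 in replicate 1 and 0.12 in replicate 2. ALG10, which adds the last glucose, had signals of 261 and 269 in untreated cells, 269 and 195 at 3 h, and 173 and 188 at 8 h. On this probe set both 8 h arrays lay below both untreated arrays, but the change of -0.55 ± 0.31 did not pass (adjusted p = 0.357, blocked). A dimmer ALG10 probe set overlapped at both times, with changes of 0.43 at 3 h and -0.11 at 8 h. No test of a difference between steps was run, since their members are few and were not drawn at random.

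Oligosaccharyltransferase occurs as a pair of complexes, built around the catalytic subunits STT3A and STT3B, that share the subunits RPN1, RPN2, DDOST and DAD1. The STT3A complex has OSTC and KRTCAP2 and works on chains as they enter the ER, and the STT3B complex has MAGT1 or TUSC3, oxidoreductases that help it to reach sites that the other complex skipped. All 10 listed subunits were tested, their median change at 8 h was 0.24, and 9 of 10 had a positive change. MAGT1, OSTC and RPN1 rose in the blocked fit.

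MAGT1 had signals (Entrez gene 84061) of 1544 and 2299 in untreated cells, 2239 and 3113 at 3 h, and 5069 and 5069 at 8 h. The 8 h arrays lay wholly above the others, and the change was 1.43 ± 0.16 in the blocked fit (adjusted p = 0.000827, and 0.0697 without the block). Its paralog TUSC3 had 2123 and 2145 in untreated cells, 1506 and 1914 at 3 h, and 1616 and 2051 at 8 h. On this probe set both Tg arrays at each time lay below both untreated arrays, with a change of -0.23 ± 0.15 at 8 h that did not pass (adjusted p = 0.424, blocked). Other tested TUSC3 probe sets did not share that order. A bright probe set overlapped at both times (-0.05 and -0.09 at 3 h and 8 h), as did a dim probe set with changes of -0.24 at each time. Another dim probe set lay wholly above (0.58 and 0.46). The difference between these paralogs' changes was not tested.

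OSTC had signals (Entrez gene 58505) of 6057 and 5640 in untreated cells, 7055 and 7293 at 3 h, and 12587 and 10655 at 8 h, each group wholly above the one before. The change at 8 h was 0.99 ± 0.12 in the blocked fit (adjusted p = 0.00129, and 0.0961 without the block). RPN1, also known as ribophorin I, had signals (Entrez gene 6184) of 1666 and 2344 in untreated cells, 1561 and 2449 at 3 h, and 2601 and 3565 at 8 h. Its values at 3 h spanned those of the untreated arrays, and the change at 8 h was 0.62 ± 0.13 (adjusted p = 0.0225, blocked, and 0.545 without the block), with 0.64 and 0.61 within the replicates. The blocked call of RPN1 was lost without any 1 of the 4 untreated and Tg 8 h arrays.

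The catalytic subunits did not pass. STT3A had 1121 and 1925 in untreated cells, 1211 and 1613 at 3 h, and 1938 and 2280 at 8 h, a change at 8 h of 0.52 ± 0.16 (adjusted p = 0.103, blocked). STT3B had 4363 and 5430 in untreated cells, 3864 and 4793 at 3 h, and 5482 and 5803 at 8 h, a change of 0.21 ± 0.12 (adjusted p = 0.367, blocked). Both 8 h arrays lay above both untreated arrays for each, by a small margin. RPN2, DDOST, DAD1 and KRTCAP2 had changes of 0.03 to 0.28 at 8 h, and DAD1 was at -0.38 ± 0.12 at 3 h (adjusted p = 0.289, blocked).

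**Figure D4:**
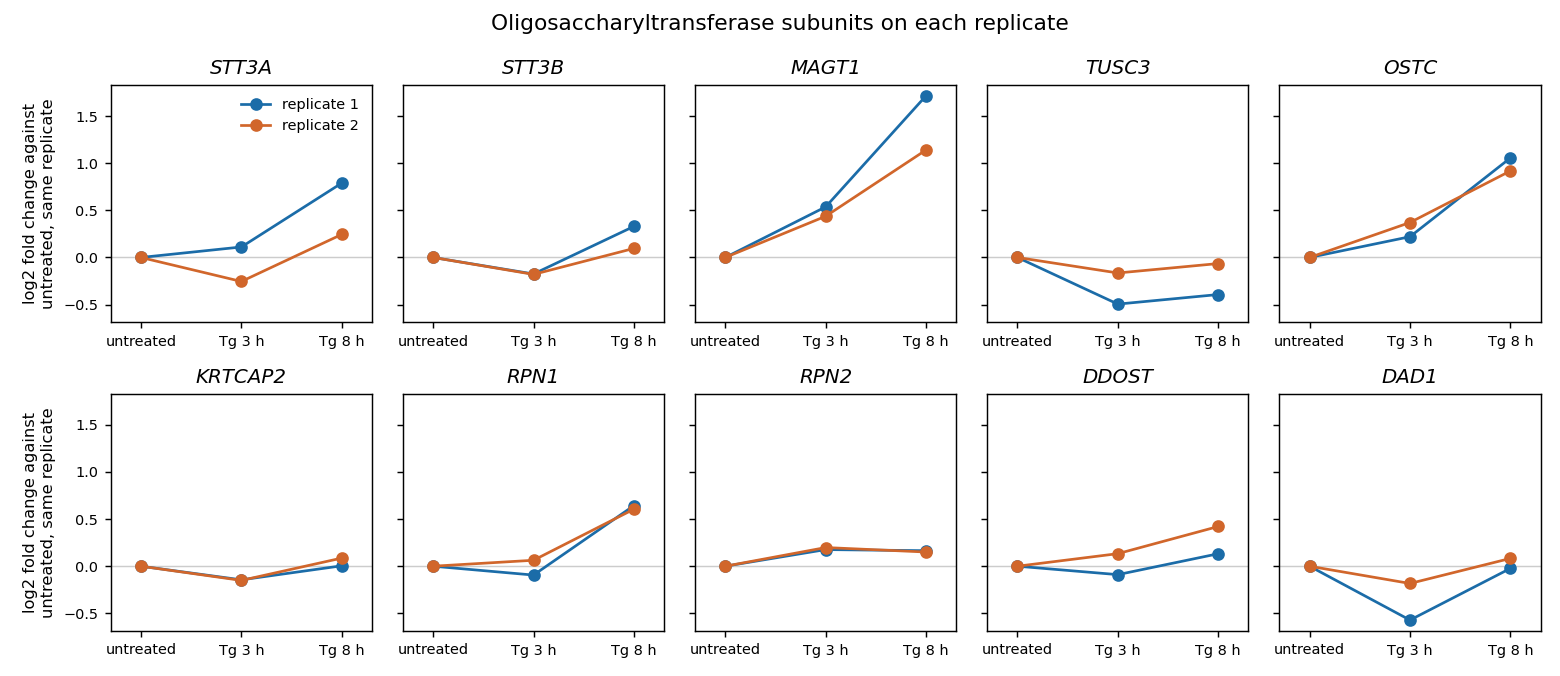
Log2 fold change against the untreated array of the same replicate (vertical axis) for the 10 oligosaccharyltransferase subunits after 3 h and 8 h of Tg, with untreated cells at 0. MAGT1 (1.72 and 1.14 at 8 h) and OSTC (1.06 and 0.92) stand above the others on both replicates, while TUSC3, read from its brightest probe set, lies below 0 at both times on both.

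The 8 h signals were set against those at 3 h to see when the members moved. In the blocked fit 7 members were higher at 8 h than at 3 h, against 1.53% of all genes, and these were the 8 members named above without NUS1. The differences ran from 0.56 for ALG5 (adjusted p = 0.0461) to 1.63 for GFPT1 (adjusted p = 0.0163), and 0 members were lower. Without the block 0 members passed in limma, 6 being higher at an unadjusted p under 0.05, and the local pooled error test called GFPT1 alone. These 7 calls depended on the 3 h arrays, since 0 were left without Tg 3 h replicate 1 and 3 without Tg 3 h replicate 2, 2 were left without Tg 8 h replicate 1 and 5 without Tg 8 h replicate 2. Tg 3 h replicate 1 also had the highest 3' to 5' ratio of ACTB, a measure of RNA integrity, at 4.47 against 2.75 to 3.49 on the other arrays. Its median signal was the highest too, at 103 against 69.7 to 89.1. The same ratio of GAPDH did not set that array apart, at 1.240 against 1.125 to 1.243, and was highest on Tg 8 h replicate 2. The ACTB ratio was 3.49 and 3.25 at 8 h and 2.97 and 2.86 in untreated cells, and its part in the changes was not tested. Both 8 h arrays lay above both 3 h arrays for 19 members, against 14% of all genes. The 3 h change of the 8 members that rose was 27.3% (ALG5) to 41.1% (NUS1) of their 8 h change on the log2 scale, apart from RPN1 at -2.47%. The 4 treatment check genes, among them HSPA5, the ER chaperone BiP, and DDIT3, which encodes CHOP, had a median of 3.03 at 3 h and 3.32 at 8 h, and 0 of 4 were called between the times in either fit. For DNAJB9 both 8 h arrays lay above both 3 h arrays, a difference of 0.43 (adjusted p = 0.239, blocked). The timing of the members was not tested against that of these genes.

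Other probe sets of the same genes gave a second reading. The 35 members had 62 own probe sets, and 22 of the 27 that were not used above were bright enough to test. Of 7 such probe sets of members that rose, 6 were also called higher in the blocked fit at 8 h, 3 of GFPT1, 2 of MAGT1 and 1 of NUS1. Those of GFPT1 gave 1.85 to 2.66 and those of MAGT1 1.52 and 1.53, and 3 of them passed without the block (1 of GFPT1 at adjusted p = 0.0499 and both of MAGT1 at 0.0419 and 0.0429). The exception was a dim probe set of ALG5 (25.2 to 166.9 on the 6 arrays, adjusted p = 0.408, blocked). Of the probe sets of members that were not called, 0 passed.

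Beyond the listed members, 12 further genes of the same pathway had been put on a list, and 8 were tested. Only GMPPA, a regulatory subunit of GDP-mannose synthesis, rose, at 0.73 ± 0.17 (adjusted p = 0.0383, blocked, and 0.276 without the block), and the median of the list was 0.04 at 8 h. Of 6 genes of glucose trimming and quality control in the ER, UGGT1, which reglucosylates misfolded glycoproteins, rose by 0.58 ± 0.14 (adjusted p = 0.0432, blocked, and 0.377 without the block), and PRKCSH, the regulatory subunit of glucosidase II, fell by 0.67 ± 0.15 (adjusted p = 0.0272, blocked, and 0.456 without the block). Among 16 genes of N-glycan maturation in the Golgi, MGAT2, which starts the second antenna, rose by 1.11 ± 0.11 (adjusted p = 0.000685, blocked, and 0.062 without the block), with 8470 and 7414 at 8 h and 3803 and 3551 in untreated cells. MGAT4B, which adds a further branch, fell by 1.45 ± 0.13 (adjusted p = 0.000324, blocked, and 0.226 without the block), with 946 and 1637 at 8 h and 2485 and 4672 in untreated cells. The GPI anchor pathway uses the same mannose donor, and of its 23 tested genes PIGA, which acts in its first reaction, rose by 2.08 ± 0.21 at 8 h (adjusted p = 0.0103 without the block, and 0.000147 with it), while PIGX fell by 0.67 ± 0.15 (adjusted p = 0.0271, blocked, and 0.257 without the block). PIGA was also the only gene of these 4 lists called at 3 h, at 1.56 (adjusted p = 0.00203, blocked, and 0.0767 without the block). The medians at 8 h were 0.23 for the trimming list, 0.13 for the Golgi list and -0.12 for the GPI anchor list, beside 0.27 for the members and -0.09 for all genes tested. The GPI anchor list holds DPM1, DPM2 and DPM3, which are also members, so these 2 sets are not separate. In the blocked fit, 1 of 23 genes of the GPI anchor list rose and 1 fell, and 1 of 16 of the Golgi list did each, shares near the 4.76% and 3.79% of all genes.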

How the data were processed

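RNA of Daoy cells was hybridized to 6 Human Genome U133 Plus 2.0 arrays. The authors deposited MAS5 signal intensity values on a linear scale, from the GCOS software, scaled on each array to a trimmed mean of 500, and the depth of arrays is their number, here 2 per group. The labels number 2 replicates in each group and the study's methods speak of independent experiments without saying what a number shares, so the p-values reflect only how far these arrays differ, which may be technical.

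Signals were log2-transformed, a probe set was kept where 2 or more arrays read 100 or higher (27616 of 54675), and limma 3.58.1 in R 4.3.3 was fitted to all 6 arrays (lmFit, eBayes with an intensity trend, two-sided). Genes were named from the platform annotation of 2016, in which 41097 probe sets carried 1 symbol, 1801 several and 11777 none. No symbol changed against RefSeq, and probe sets with several symbols were used for no gene. A gene was read from its own probe set with the highest mean log2 signal. Promoter windows are RefSeq's (Python 3.11.15, pandas 2.3.3).

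Deviations from the group means of arrays with the same number correlated at 0.52 to 0.74 across the members and 0.26 to 0.32 across everything tested. Across the 12451 probe sets with a mean signal of at least 500 they correlated at 0.66 to 0.70, so the pairing was not particular to the members. The hybridization and 18S rRNA controls separated the same numbers. The number was therefore treated as a batch, and the fit with it as a replicate block is given beside the other. The members, steps, lists and tests were chosen with earlier results of these data known. Signals on every array are given for members called in either fit and for the paralog pairs. DPAGT1 and genes named from single settings were chosen after their values were seen. The alternatives were the block, the local pooled error test, no intensity trend, quantile normalization, median centring, other filters, a floor, a pseudocount of 50, only the 4 arrays compared, each array left out, and the mean of a gene's probe sets. Alternatives to the blocked fit, and those for medians and for groups that do not overlap, were added after the data were seen.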

Additional observations from a re-analysis of the deposited data

Results flagged for a closer look

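In the blocked fit, the Tg effects at 8 h and at 3 h differed for 7 members by the test of the difference itself, both effects being measured against the same untreated arrays. The 8 h effect exceeded the 3 h effect by 1.63 on the log2 scale for GFPT1, 0.94 for MAGT1, 0.81 for UAP1, 0.75 for ALG2, 0.69 for OSTC, 0.64 for RPN1 and 0.56 for ALG5, with adjusted p-values of 0.0109 to 0.0461. Without Tg 3 h replicate 1, 0 of these differences passed.

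For DPAGT1 both Tg 3 h arrays were lower and both Tg 8 h arrays higher than both untreated arrays, a difference of 0.46 on the log2 scale between the times. The test of that difference did not pass (adjusted p = 0.12 with the block and 0.722 without it, limma).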

How the results depend on the processing

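Fitting the replicate number as a block gave 8 members at 8 h in place of 1, and 7 between 8 h and 3 h in place of 0. At 8 h without the block the count was 2 with the local pooled error test and with quantile normalization, 0 with median centring, with signals under 100 raised to 100, without the intensity trend and with only the 4 arrays compared, and 0 to 2 when each array was left out, the 2 being GFPT1 and MAGT1 without untreated replicate 2. It stayed at 1 with no filter on dim probe sets (GFPT1 in place of ALG2) and with the mean of all probe sets (MAGT1 in place of ALG2). Between the times, the local pooled error test called 1. In the blocked fit the 8 h count became 0 without the intensity trend, where 0 probe sets of all 27616 passed and 9 members were higher at an unadjusted p under 0.05, and the count between the times became 0 without the trend, 3 with the mean of all probe sets, and 0 to 7 when each array was left out. The blocked 8 h count was 6 to 8 when each array was left out. GFPT1, UAP1, OSTC and MAGT1 were called in the blocked fit at 8 h under every alternative but the one without the trend, and ALG2 and ALG5 under all but that and the mean of probe sets. GFPT1 alone was called at 3 h (1 in place of 0) in the blocked fit of only the 4 arrays compared, and without either Tg 8 h array, which is a range of 0 to 1. GNPNAT1 joined at 8 h with quantile normalization, a signal of at least 200, a pseudocount of 50, and only the 4 arrays compared, and DPM1 without Tg 8 h replicate 2.

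Median centring lowered the median of all probe sets tested at 3 h from -0.02 to -0.13 and that of the members to -0.15, and left 1 member wholly below at 8 h in place of 2. The members' 3 h median was 0.0098 with the mean of all probe sets and -0.041 to 0.050 when each array was left out, and their 8 h median was 0.17 to 0.27, lowest without untreated replicate 1. PMM1 at 8 h, -0.010 as reported, turned to 0.058 with quantile normalization and 0.073 with median centring, and ran from -0.39 to 0.37 when each array was left out. The causes were not tested. An array left alone in its group was assumed to vary like those of the other groups. With 2 arrays per group, a change that misses the threshold is not shown to be absent.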

Other observations

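ALG11, which adds the last mannoses on the cytosolic face, was read only by probe sets shared with other genes. That shared with UTP14C alone had 1223 and 1081 in untreated cells, 1478 and 1353 at 3 h, and 2175 and 1822 at 8 h, a change at 8 h of 0.79 ± 0.14 (adjusted p = 0.00993 in limma with the block, and 0.198 without it). The probe set shared with UTP14A and UTP14C changed by 0.24 ± 0.13 (adjusted p = 0.346, blocked). Signal of ALG11 and of its partners cannot be told apart there. The 3 probe sets shared by ALG10B and ALG10 had changes of -0.29 to 0.43 at 8 h, none of which passed.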
